A study of Sus scrofa with 37 samples.

Results

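The receptors through which hormones and nerves start or stop secretion in the pancreas were followed in the organ and in cultured islets of pigs. The group was named by symbol and not by a cut on measured values, although earlier results of these data were known. It held 9 receptors, and 7 of them matched a row among the 25880 gene rows of the deposited count tables. These 7 were CHRM3 (ENSSSCG00000026176), SCTR (ENSSSCG00000029536), GLP1R (ENSSSCG00000001589), GIPR (ENSSSCG00000021053), GCGR (ENSSSCG00000034891), ADRA2A (ENSSSCG00000010629) and SSTR2 (ENSSSCG00000017249). CCKAR, the cholecystokinin receptor, and FFAR1, a fatty acid receptor of beta cells, matched no row under those symbols and were not analysed here.

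The pancreas holds exocrine and endocrine tissue under separate control. Acinar cells release digestive enzymes when acetylcholine acts on CHRM3, which couples to Gq, phospholipase C and calcium release, and secretin acts on SCTR of duct and acinar cells, which couples to Gs and cyclic AMP. In the islets, the incretin receptors GLP1R and GIPR and the glucagon receptor GCGR raise cyclic AMP and strengthen insulin release, whereas ADRA2A, a receptor for adrenaline and noradrenaline, and SSTR2, a receptor for somatostatin, couple to Gi and restrain hormone release.

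The study set pigs of higher against lower islet density side by side in both tissues. A pancreas library came from a 50 mg piece of the organ's duodenal lobe, and an islet library from purified islets after 7 days of free-floating culture, so that tissue and culture cannot be told apart. By density label, 8 pancreas libraries were High and 9 Low. Islet libraries numbered 8 High and 9 Low, plus 1 from pig 12AS51 without a High or Low label. The labels give neither strain, age, sex nor treatment and do not say how density was scored. Libraries with counts of both tissues came from 16 pigs, and of the 15 of these with a density label in both tissues 4 carried different labels. Pig 15LS30, whose pancreas was labelled Low, also had an islet sample labelled High, but that sample had no column of counts.

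Islet libraries held 3237653 to 6702589 counts and pancreas libraries 265000 to 3922006. There were 7 pancreas libraries with fewer than 1000000 counts, the deepest with 536014. All 7 were labelled Low and 6 came from pigs whose code begins with 14, so depth, animal code and the Low label of the pancreas moved together. In islets, all 6 libraries of code 14 were labelled Low, beside 3 Low islet libraries of other codes, so code and label were partly tied there too. The 8 High pancreas libraries and the remaining 2 Low ones held at least 1855075 counts and are called the deep libraries here. Summed acinar markers reached 94100 to 263500 CPM (the gene's counts per 1000000 counts of the library) in the 10 deep pancreas libraries, 10840 to 30960 CPM in the 7 shallow ones and 4.77 to 541 CPM in islets. Summed pan-endocrine markers reached 20070 to 35620 CPM in the 17 islet libraries with a density label and 188 to 6765 CPM in pancreas. The islets of 12AS51 stood apart, with 6044 CPM of these markers and 87.8% of their counts in their 10 most abundant genes. That library entered the comparison of tissues and the search for genes of like pattern, and no comparison of density. In pancreas, the 10 most abundant genes held 53.3% to 71.7% of counts in the 7 shallow libraries and 29.3% to 45.1% in the 10 deep ones. This share thus moved with depth and the Low label too, and CPM values of the shallow libraries carry that difference in make-up.

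Islets and pancreas were compared over all 35 libraries with edgeR's quasi-likelihood test, with Benjamini-Hochberg adjustment over all genes tested and a threshold of 0.05. Of the 7 receptors, 3 were higher in islets (GIPR, GCGR and SSTR2), against 31.1% of the 12339 genes tested. A further 3 were lower in islets (SCTR, CHRM3 and GLP1R), against 31.5% of the genes tested. These shares are so large that the counts alone say little about the receptors. The median log2 fold change was 0.52 over the receptors and −0.014 over all genes tested. In bulk tissue, fewer cells of a type and less RNA per cell cannot be told apart.

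**Figure D1:**
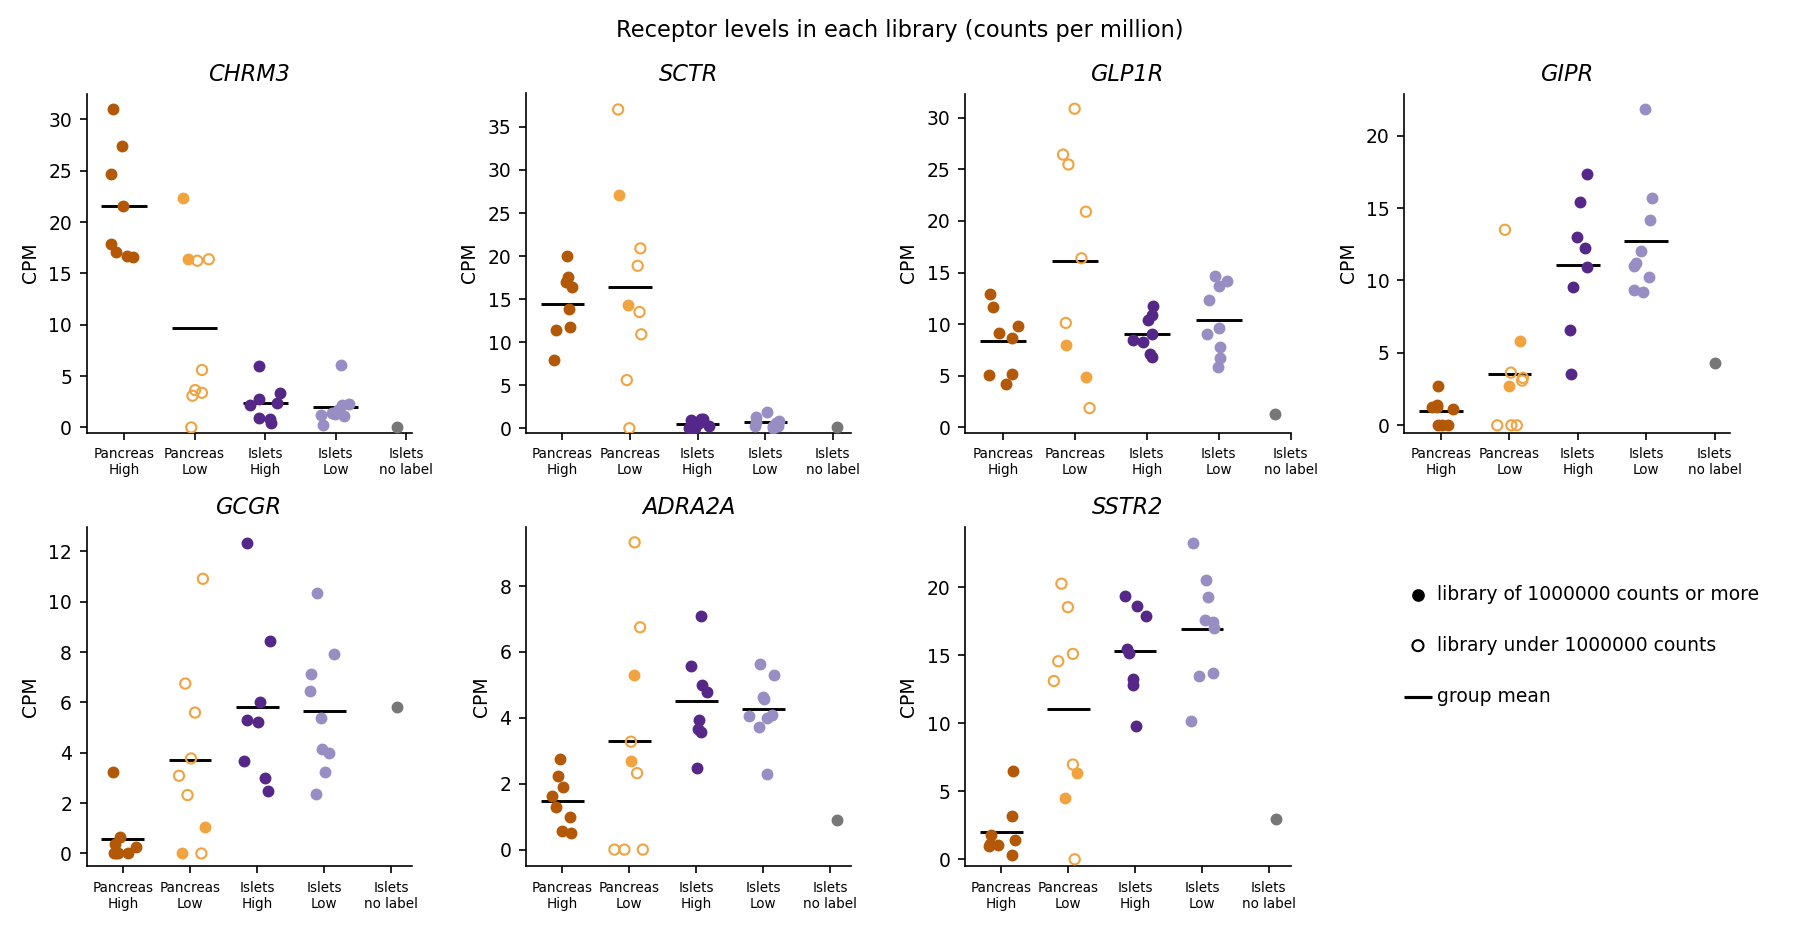
Level of each receptor in every library, in CPM, for pancreas and islets by density label. Filled points are libraries of at least 1000000 counts, open points are shallower ones and bars are group means. CHRM3 and SCTR stood higher in the pancreas and GIPR and SSTR2 higher in islets. Many open points of GLP1R, GCGR and SSTR2 lie above the deep pancreas libraries, and others lie among or below them.

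CHRM3, the muscarinic receptor of acinar cells, was the first of the 2 exocrine receptors with a row. Its level in the pancreas was 0 CPM in the lowest library, 16.6 CPM at the median and 31.0 CPM in the highest, and in islets 0, 1.565 and 6.11 CPM. The 10 deep pancreas libraries ranged from 16.45 to 30.98 CPM and lay above every islet library, whereas the shallow ones, read from 0 to 7 counts each, overlapped with islets. The mean was 15.3 ± 9.16 CPM in pancreas (SD, n = 17) and 2.03 ± 1.72 CPM in islets (SD, n = 18). CHRM3 was lower in islets by a log2 fold change of −3.64 (SE 0.31, 95% interval −4.26 to −3.02, adjusted p = 1.67e-13), and it was lower in islets in 15 of the 16 pigs.

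SCTR, the secretin receptor, had the lower islet level relative to the organ. Pancreas libraries gave 0, 14.3 and 37.0 CPM (lowest, median, highest), and islets 0, 0.4995 and 1.87 CPM, read from 0 to 9 counts. Deep pancreas libraries did not fall below 7.90 CPM and did not overlap with islets, whereas shallow ones did. Without the shallow libraries 8464 of 12607 genes were called between the tissues. The share of all genes that keep deep pancreas and islet libraries apart, as CHRM3 and SCTR did, was not counted. A total of 46 SCTR counts over all 18 islet libraries gave 0.587 CPM, with an exact Poisson interval of 0.43 to 0.783 CPM that covers counting error only. The log2 fold change was −5.11 (SE 0.31, 95% interval −5.73 to −4.49, adjusted p = 9.24e-18), in 15 of 16 pigs.

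Mean levels of these receptors in islets were a larger share of the pancreas level than those of acinar markers. Islets held 13.3% of the pancreas level of CHRM3 and 3.79% of that of SCTR, against 0.0653% for the summed acinar markers and 4.80% for the summed duct markers. With the 10 deep pancreas libraries alone the shares were 9.58% for CHRM3, 3.75% for SCTR, 0.0409% for acinar and 3.26% for duct markers. The differences between these shares were not tested.

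GLP1R, the receptor for glucagon-like peptide 1, had similar ranges in islets and in the deep pancreas libraries. Islet libraries gave 1.34, 9.03 and 14.65 CPM (lowest, median, highest) from 9 to 66 counts, and pancreas libraries 1.87, 9.83 and 30.9 CPM from 1 to 34 counts. The islet range, but for 12AS51, lay within that of the pancreas. The mean was 9.33 ± 3.32 CPM in islets (SD, n = 18), 7.96 ± 3.05 CPM in the deep pancreas libraries (SD, n = 10) and 18.9 ± 10.2 CPM in the shallow ones (SD, n = 7, from 1 to 10 counts each). Over all libraries GLP1R was lower in islets by −0.65 on the log2 scale (SE 0.23, adjusted p = 0.0145) and a lower level in 10 of 16 pigs. Without the shallow libraries the value was −0.23 and the call was lost (adjusted p = 0.251), as it was without pigs of code 14 (−0.20, adjusted p = 0.377), without a filter on low counts (−0.24, adjusted p = 0.293) and with limma-voom (−0.42, adjusted p = 0.0635).

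GIPR, the receptor for glucose-dependent insulinotropic polypeptide, was the other incretin receptor. Islet libraries gave 3.54, 11.1 and 21.8 CPM from 13 to 99 counts. Pancreas libraries gave 0, 1.275 and 13.5 CPM, of which 6 of 17 were at 0 counts. The highest pancreas value stood on 4 counts in a shallow library. Apart from that library the pancreas did not exceed 5.84 CPM, a level below 16 of the 18 islet libraries. The log2 fold change was 2.46 (SE 0.39, 95% interval 1.68 to 3.24, adjusted p = 6.41e-07), higher in islets in 15 of 16 pigs. The value was 2.66 without the shallow libraries.

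GCGR, the glucagon receptor, ranged from 2.36 to 12.4 CPM in islets with a median of 5.34 CPM, from 10 to 40 counts. The pancreas libraries gave 0, 0.641 and 10.9 CPM from no more than 6 counts each. The deep ones had a mean of 0.557 ± 1.01 CPM (SD, n = 10), and 5 of these 10 were at 0, whereas the shallow ones averaged 4.63 ± 3.53 CPM (SD, n = 7). In the library of 265000 counts a single count is worth 3.77 CPM, so those values carry little precision. GCGR was higher in islets by 2.45 on the log2 scale (SE 0.63, adjusted p = 8.43e-04), and by 3.45 without the shallow libraries (adjusted p = 6.1e-05). It was higher in islets in 13 of 16 pigs.

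SSTR2, the somatostatin receptor, stood above the deep pancreas libraries in all islets but those of 12AS51, which lay within their range. The share of all genes that do so was not counted. The 18 islet libraries gave 2.98, 16.2 and 23.3 CPM from 20 to 111 counts, and the lowest was that of 12AS51. The 17 islet libraries with a density label did not fall below 9.81 CPM and lay above all 10 deep pancreas libraries, which reached 0.325 to 6.47 CPM. Shallow pancreas libraries gave 0 to 20.25 CPM from 0 to 6 counts and overlapped with islets. The log2 fold change was 1.54 (SE 0.34, adjusted p = 1.37e-04) over all libraries and 2.23 without the shallow ones (adjusted p = 4.21e-09), and SSTR2 was higher in islets in 12 of 16 pigs.

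ADRA2A, the alpha-2A adrenergic receptor, did not pass the threshold. Islet libraries gave 0.895, 4.06 and 7.08 CPM and pancreas libraries 0, 1.91 and 9.33 CPM, again overlapping. Its log2 fold change was 0.52 (SE 0.31, 95% interval −0.12 to 1.16, adjusted p = 0.1501), with a higher level in islets in 12 of 16 pigs. ADRA2A did pass the threshold without the shallow libraries (0.76, adjusted p = 0.0171), without pigs of code 14 (0.75, adjusted p = 0.0472), without a filter on low counts (0.83, adjusted p = 0.0171), with DESeq2 (0.62, adjusted p = 0.0469) and without pancreas Low replicate 7 (0.72, adjusted p = 0.0254). That replicate is a shallow library with 5 ADRA2A counts and the highest pancreas level of the gene.

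**Figure D2:**
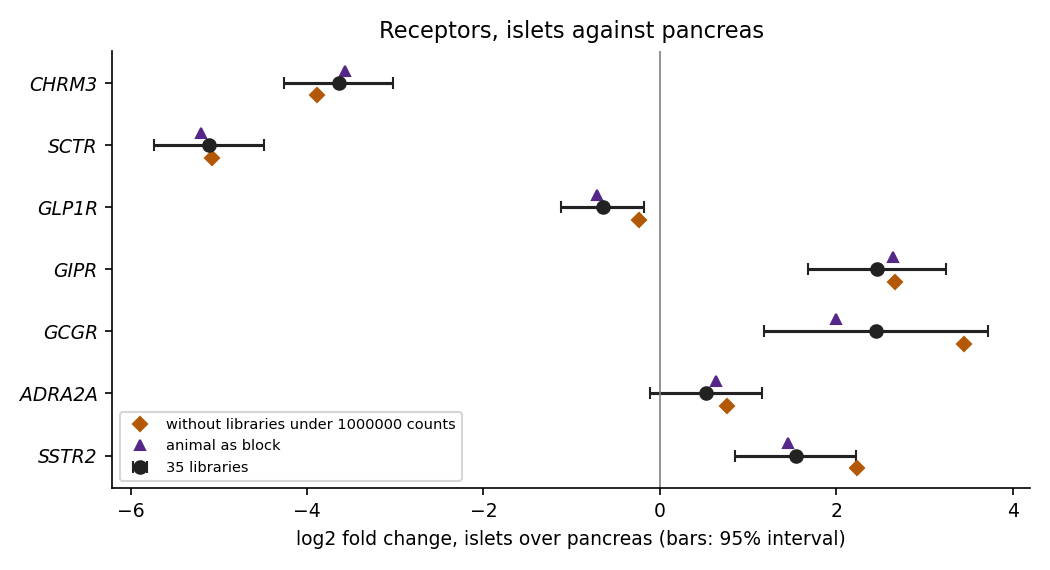
Log2 fold change of each receptor, islets over pancreas, with its 95% interval over 35 libraries (circles), without libraries under 1000000 counts (diamonds) and with the animal as a block in the 16 pigs with both tissues (triangles). CHRM3 and SCTR lie far to the left, GIPR, GCGR and SSTR2 to the right, and GLP1R moves from −0.65 to −0.23 without the shallow libraries.

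The pancreas level of the receptors with an islet role was set against that of endocrine markers. Pan-endocrine markers such as CHGA and PCSK2 had 2.87% of their summed islet level in the pancreas over all libraries and 4.16% in the deep ones. In the deep libraries the share was 9.72% for GCGR, 14.1% for GIPR, 17.6% for SSTR2, 47.4% for ADRA2A and 85.4% for GLP1R. The deep marker mean includes a library at 6765 CPM, while the median was 513 CPM. Over all pancreas libraries these receptors had shares from 20.3% for GIPR to 133.5% for GLP1R. Single endocrine markers also varied over all pancreas libraries, from 1.60% for CHGB to 39.0% for PTPRN2. Whether the receptors differ from the markers in this share was not tested, and the source of the pancreas counts was not tested.

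**Figure D3:**
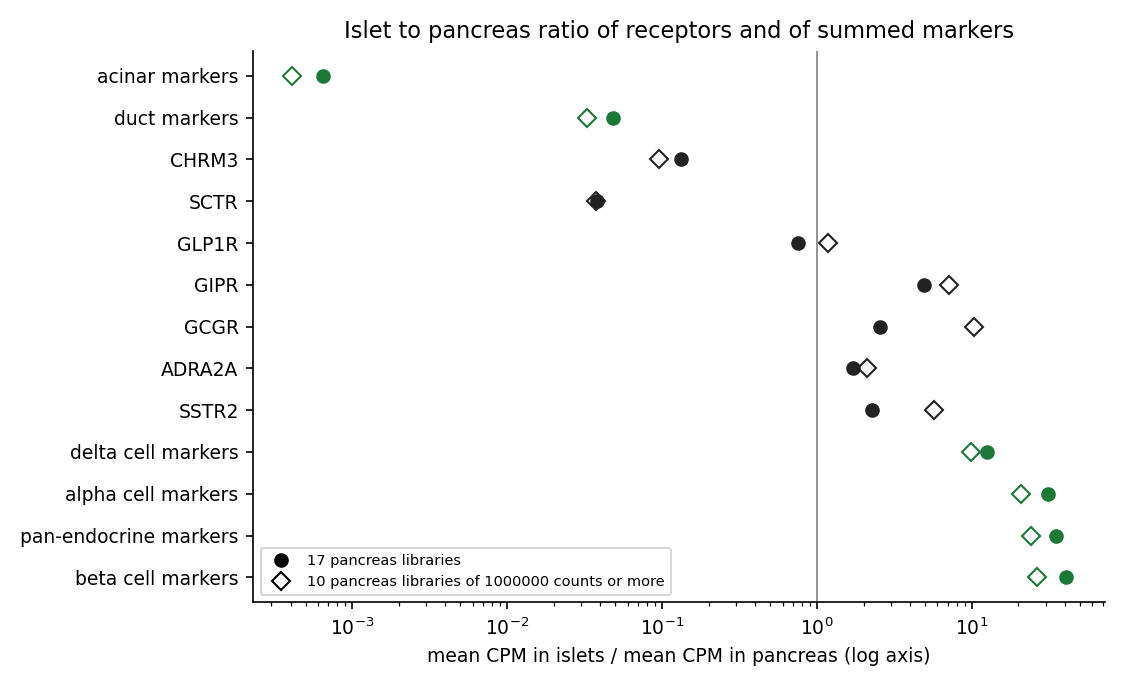
Ratio of mean CPM in islets to mean CPM in pancreas on a log axis, for the 7 receptors (black) and for summed cell type markers (green), with all 17 pancreas libraries (circles) or the 10 deep ones (open diamonds). GLP1R lies at 0.749 with all libraries and 1.17 with the deep ones, far from the pan-endocrine markers at 34.9 and 24.04.

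The deep pancreas libraries allowed a look at the receptors against endocrine content within the organ. Pancreas Low replicate 9, from pig 15LS30, held 6765 CPM of pan-endocrine markers, whereas the other 9 held no more than 1303 CPM. Among the 10 deep libraries it ranked first for GIPR (5.84 CPM from 11 counts, others at most 2.695 CPM) and first for ADRA2A (5.31 CPM from 10 counts, others at most 2.75 CPM). It ranked second for SSTR2 with 6.37 CPM and second for GCGR with 1.06 CPM from 2 counts. For GLP1R it ranked sixth, with 7.96 CPM. It also held the highest SCTR level, 27.1 CPM, and the lowest CHRM3 level, 16.45 CPM.

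Over these 10 libraries, log2(CPM + 1) of each receptor was set against the same measure of the summed pan-endocrine markers, with a two-sided permutation test of 100000 resamples and adjustment over the 7 relations. SSTR2 gave Pearson's r = 0.687 (permutation p = 0.0126, adjusted p = 0.0883) and Spearman's rho = 0.576 (permutation p = 0.0894, adjusted p = 0.313). GIPR gave r = 0.654 (permutation p = 0.0331, adjusted p = 0.116) and rho = 0.399 (permutation p = 0.256, adjusted p = 0.448). GLP1R gave r = 0.123 (permutation p = 0.792, adjusted p = 0.792) and rho = −0.127 (permutation p = 0.733, adjusted p = 0.855). GCGR gave r = 0.631 (permutation p = 0.0956, adjusted p = 0.147) and the highest rho of the 7, 0.653 (permutation p = 0.0491, adjusted p = 0.313). SCTR, an exocrine receptor, gave r = 0.620 (permutation p = 0.0744, adjusted p = 0.147) and rho = 0.297 (permutation p = 0.406, adjusted p = 0.569). ADRA2A gave r = 0.548 (permutation p = 0.105, adjusted p = 0.147) and rho = −0.018 (permutation p = 0.973, adjusted p = 0.973). CHRM3 gave r = −0.384 (permutation p = 0.291, adjusted p = 0.340) and rho = −0.455 (permutation p = 0.191, adjusted p = 0.445). None of the 7 passed after adjustment. Without the 2 libraries farthest from the median marker level, r was 0.458 for GCGR, 0.229 for SSTR2 and −0.194 for GIPR. It was −0.349 for CHRM3, −0.351 for ADRA2A, −0.398 for SCTR and −0.472 for GLP1R. Without those libraries the r of GIPR, ADRA2A, SCTR and GLP1R thus turned negative, and that of SSTR2 and GCGR was smaller. Leaving them out narrows the range of marker levels, which alone can lower r, so the fall is no check on the relation.

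**Figure D4:**
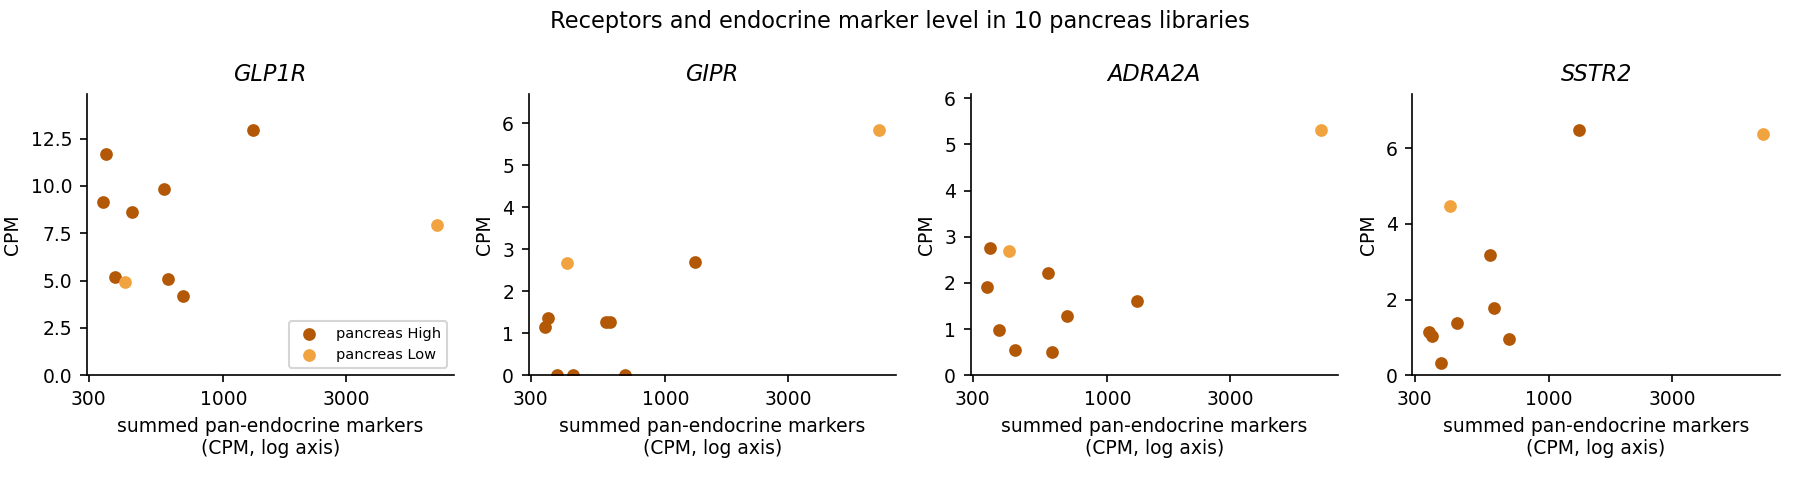
Level of GLP1R, GIPR, ADRA2A and SSTR2 in the 10 deep pancreas libraries (CPM) against summed pan-endocrine markers (CPM, log axis), coloured by density label. The library at the far right, with 6765 CPM of markers, holds the highest GIPR and ADRA2A levels and an intermediate GLP1R level.

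High and Low pancreas libraries were compared next. Only 4 receptors passed the filter on low counts. CHRM3 was higher in High pancreas, against 18.8% of the 10634 genes tested, and SSTR2 was lower, against 21.5%. The median log2 fold change over the 4 was −0.55, against 0.065 over all genes tested. No receptor was called when the shallow libraries or the pigs of code 14 were left out, and then no gene of the genome was called either (0 of 13217 and 0 of 12844 genes with edgeR). These fits set 8 High libraries against 2 and 3 Low ones, so a lost call does not show that a difference was absent. The Low libraries left in them, the 2 deep ones included, all came from pigs whose islet sample was labelled High.

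CHRM3 gave 16.6, 19.7 and 31.0 CPM in High pancreas (lowest, median, highest) and 0, 5.60 and 22.4 CPM in Low pancreas. Each High library was above 8 of the 9 Low ones, but the ranges overlapped through Low replicate 2. The log2 fold change was 0.94 (SE 0.32, adjusted p = 0.0238). Of the 2 deep Low libraries, 1 had 22.4 CPM, within the High range, and the other 16.45 CPM, just below it. The value without the shallow libraries was 0.61 (adjusted p = 0.557). The call was also lost without Low replicate 1 (0.82, adjusted p = 0.0509), without Low replicate 5 (0.80, adjusted p = 0.0553), and with upper-quartile scaling (0.79, adjusted p = 0.0549). Summed acinar markers moved the same way, by 3.05 on the log2 scale (adjusted p = 0.00181 over 22 marker comparisons, exact permutation test). With that sum as a covariate the CHRM3 value was 0.089 (adjusted p = 1.0). That fit called 0 of 10634 genes, against 4283 without the covariate, so the lost call was not particular to CHRM3. The part of acinar content in the difference was not tested further.

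SSTR2 went the other way. High pancreas gave 0.325, 1.27 and 6.47 CPM from 1 to 12 counts, and Low pancreas 0, 13.1 and 20.25 CPM, also from no more than 12 counts. The log2 fold change was −2.39 (SE 0.58, adjusted p = 0.00278). It was −1.01 without the shallow libraries (adjusted p = 0.701) and −0.32 with the acinar covariate, fits in which no gene was called. Both deep Low libraries, at 4.475 and 6.37 CPM, stood above 7 of the 8 High libraries. Without any one of the Low replicates 1, 3, 4, 5, 6, 8 or 9, SSTR2 no longer passed the filter and was not tested. Summed Schwann and neural markers were lower in High pancreas too, by −1.41 on the log2 scale (adjusted p = 0.00272, exact permutation test). Summed pan-endocrine markers gave 0.35 (adjusted p = 0.797, same test). Tested singly with edgeR, 1 of 2 Schwann and neural genes was lower. Of 14 pan-endocrine genes 6 were lower and 1 was higher, against 21.5% and 18.8% of all genes. The part of either marker group in the SSTR2 value was not tested.

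GLP1R and SCTR were not called in the pancreas. GLP1R gave 4.17 to 12.9 CPM in High and 1.87 to 30.9 CPM in Low libraries, with a log2 fold change of −0.88 (SE 0.43, 95% interval −1.77 to 0.014, adjusted p = 0.105). Its direction turned without the shallow libraries, to 0.84 (adjusted p = 0.555), whereas leaving out Low replicate 2 or 9, both of them deep, gave a call (−1.16, adjusted p = 0.0199, and −1.12, adjusted p = 0.03). SCTR gave 7.90 to 19.95 CPM in High and 0 to 37.0 CPM in Low libraries, and its log2 fold change was −0.22 (SE 0.34, 95% interval −0.91 to 0.47, adjusted p = 0.626). Summed duct markers were higher in High pancreas, by 1.63 on the log2 scale (adjusted p = 0.0199, exact permutation test). The 7 shallow Low libraries held 313 to 619 CPM of them. The 2 deep Low ones held 2156 and 2200 CPM, within the 1416 to 2929 CPM of High libraries. The part of duct markers in the SCTR value was not tested.

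GIPR, GCGR and ADRA2A fell under the filter on low counts in the pancreas. Their means were 0.97, 0.564 and 1.48 CPM in High pancreas and 3.56, 3.72 and 3.30 CPM in Low pancreas, all read from 11 or fewer counts a library. In a fit without that filter GCGR was lower in High pancreas (−2.36, adjusted p = 0.0363), although the 2 deep Low libraries had a mean of 0.5305 CPM, close to the 0.564 CPM of High libraries, while GIPR (−1.41, adjusted p = 0.124) and ADRA2A (−0.88, adjusted p = 0.256) did not pass.

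**Figure D5:**
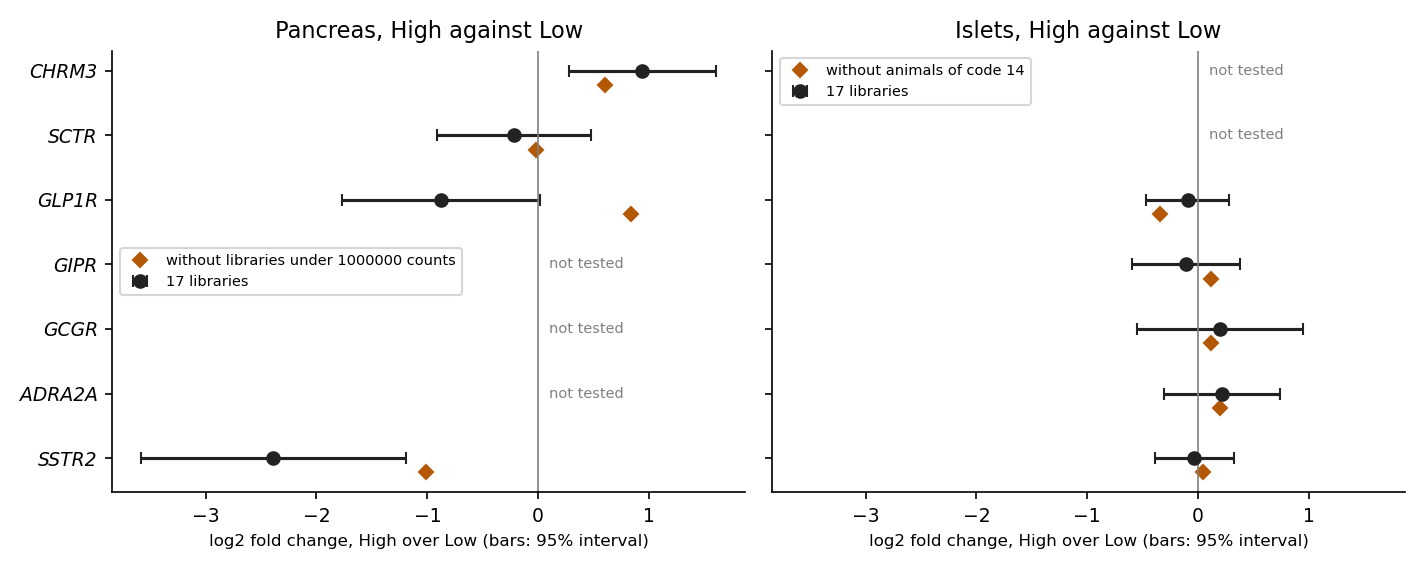
Log2 fold change of High over Low libraries with its 95% interval, in pancreas (left) and islets (right), over 17 libraries each (circles) and without shallow libraries or without pigs of code 14 (diamonds). Receptors under the filter on low counts are marked as not tested. The pancreas intervals are wide and values move without the shallow libraries, and all 5 islet intervals include 0.

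In cultured islets none of the 5 receptors tested differed between High and Low libraries, and of 12070 genes 0% were called. At an unadjusted p under 0.05 there were 0 of the 5 receptors and 257 of all genes, and DESeq2 and limma-voom also called 0 genes. GLP1R had a mean of 9.08 ± 1.77 CPM in High (SD, n = 8) and 10.4 ± 3.37 CPM in Low islets (SD, n = 9). GIPR had 11.1 ± 4.51 and 12.7 ± 4.03 CPM, and SSTR2 15.3 ± 3.26 and 16.9 ± 3.98 CPM. The ranges of High and Low islets overlapped for each receptor.

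The intervals state what sizes of difference these islet libraries leave possible. The log2 fold change of GLP1R was −0.092 with a 95% interval of −0.47 to 0.28, and that of SSTR2 −0.033 with −0.39 to 0.33. GIPR gave −0.11 with −0.59 to 0.38, ADRA2A 0.21 with −0.31 to 0.74, and GCGR 0.20 with −0.55 to 0.95. CHRM3 and SCTR were under the filter, with 1 to 25 and 0 to 9 counts in labelled islet libraries. CHRM3 had a mean of 2.36 CPM in High and 1.96 CPM in Low islets, and SCTR 0.547 and 0.675 CPM.

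Whether the density difference itself differed between the tissues was tested as an interaction over the 34 labelled libraries. It was positive and called for SSTR2 (1.90, SE 0.49, adjusted p = 0.00306) and GCGR (2.47, SE 0.98, adjusted p = 0.0411), against 22.2% of the 14337 genes tested. GIPR (1.53, adjusted p = 0.0539) and ADRA2A (1.30, adjusted p = 0.0693) had positive values that missed the threshold. With limma-voom, GIPR (1.96, adjusted p = 0.0173) and ADRA2A (1.24, adjusted p = 0.0393) passed and GCGR (1.98, adjusted p = 0.0775) did not, and the same held when the animal was added as a block: GIPR (1.96, adjusted p = 0.0171) and ADRA2A (1.24, adjusted p = 0.037) passed and GCGR (1.99, adjusted p = 0.0734) did not. Without the shallow libraries the values were 0.93 for SSTR2 (adjusted p = 0.453) and −0.12 for GCGR (adjusted p = 0.984), and neither was called.

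The closest relatives of the receptors were followed in the same way. CHRM2, another muscarinic receptor, which couples to Gi, fell in islets by a log2 fold change of −6.72 (adjusted p = 5.49e-21), from a mean of 34.8 CPM in pancreas to 0.482 CPM. ADRA2C, a relative of ADRA2A, fell by −6.56 (adjusted p = 4.48e-16), from 6.82 to 0.0587 CPM, and 15 of the 18 islet libraries held none of its counts. SSTR1 fell (−1.76, adjusted p = 3.48e-07) whereas SSTR3 rose (1.58, adjusted p = 0.00114), so the somatostatin receptors did not move as one. VIPR1 (−1.92, adjusted p = 1.14e-06) and ADCYAP1R1 (−2.43, adjusted p = 2.02e-07), which bind vasoactive intestinal peptide and its relative PACAP, were lower in islets. FFAR2, a receptor for short-chain fatty acids, had a value of 0.034 (adjusted p = 0.945) that became 1.33 without the shallow libraries (adjusted p = 2.7e-05).

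The counts of the following groups stand beside the 31.1% of all genes that were higher and the 31.5% that were lower in islets, and shares near these say little about a group. Among 16 other secretagogue and inhibitory receptors tested, 10 fell and 5 rose in islets, with a median log2 fold change of −1.75. GALR1, a galanin receptor, was among those that fell (−5.44, adjusted p = 1.08e-13), and 14 of 18 islet libraries had no count of it. Of 10 ligand genes with a row, 3 passed the filter on low counts, and these rose. ADCYAP1, which encodes PACAP and was named after its values were seen, was under the filter, with a mean of 0.185 CPM in islets and 3.27 CPM in pancreas. GAL, which encodes galanin, rose by 6.10 (adjusted p = 1.67e-09), GCG, the source of glucagon and glucagon-like peptide 1, by 4.75 (adjusted p = 5.52e-11), and SST, the ligand of the somatostatin receptors, by 4.55 (adjusted p = 2.34e-14). GAL varied widely, with 2.78 to 1256 CPM over islet libraries.

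Downstream genes were grouped by the G protein they follow. All 6 tested genes of the Gi group rose in islets, with a median log2 fold change of 2.15. They included GNAI1, a Gi alpha subunit (3.16, adjusted p = 9.45e-16), and the G protein-gated potassium channel genes KCNJ3 (3.68, adjusted p = 1.54e-14) and KCNJ6 (2.49, adjusted p = 1.28e-07). In the Gs group 9 of 19 rose and 5 fell, with a median of 0.39. The adenylyl cyclase gene ADCY1 (3.43, adjusted p = 8.12e-11) and PRKAR1A, a regulatory subunit of protein kinase A (2.70, adjusted p = 7.36e-11), rose, and RAPGEF3, a cyclic AMP sensor also called EPAC1, fell (−4.37, adjusted p = 8.62e-12).

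In the Gq group 6 of 14 rose and 5 fell, with a median of −0.055. The phospholipase C gene PLCB4 rose (2.44, adjusted p = 2.67e-14) and the kinase gene PRKD1 fell (−2.07, adjusted p = 1.12e-11). PRKCB, a protein kinase C, fell (−1.53, adjusted p = 7.1e-04), a call lost without the shallow libraries (−0.35, adjusted p = 0.238). Among regulators of receptor signalling 4 of 11 rose and 5 fell, with a median of −0.17. The 3 with the largest change were the RGS genes, which end G protein signals, RGS2 (3.73, adjusted p = 6.07e-14), RGS4 (3.72, adjusted p = 1.27e-10) and RGS16 (3.41, adjusted p = 4.54e-17).

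In High against Low pancreas, where 18.8% of all genes were higher and 21.5% lower, the counts differed between these groups. Among other receptors 2 of 13 rose and 5 fell, in the Gs group 2 of 20 rose and 10 fell, among regulators 1 of 9 rose and 7 fell, and in the Gq group 2 of 15 rose and 4 fell, near the shares over all genes. In the Gi group 1 of 4 rose and none fell, and the riser was GNAI3 (0.85, adjusted p = 0.0458), and of 2 ligands SST fell (−0.94, adjusted p = 0.048). The largest falls included the cyclase genes ADCY8 (−3.82, adjusted p = 9.8e-05) and ADCY3 (−2.75, adjusted p = 2.88e-04), the receptor genes ADRA1A (−3.02, adjusted p = 5.08e-04) and FFAR2 (−2.90, adjusted p = 5.98e-04), PLCB2 (−2.86, adjusted p = 0.00125), PRKCB (−2.42, adjusted p = 7.77e-04), ARRB2, an arrestin (−2.27, adjusted p = 0.00168), and GRK5, a receptor kinase (−1.94, adjusted p = 6.28e-04).

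Of the relatives, VIPR1 (−1.57, adjusted p = 0.00756) and ADCYAP1R1 (−1.24, adjusted p = 0.01) were lower and SSTR1 was higher in High pancreas (1.39, adjusted p = 0.0124). CHRM2 (0.77, adjusted p = 0.0704) and ADRA2C (−0.004, adjusted p = 0.996) did not pass. None of the named genes was called without the shallow libraries. In islets, 0 of the 65 genes tested in these 6 groups were called between High and Low libraries, 2 of them had an unadjusted p under 0.05, and the relatives tested lay between −0.22 for VIPR1 and 0.22 for ADCYAP1R1.

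Genes whose log2 CPM ran most like a receptor's within the tissue of its higher mean over all libraries were listed as a description, with no test. For GLP1R that tissue was the pancreas, although its mean over the deep pancreas libraries alone was below that of islets. Over the 10 deep pancreas libraries the nearest of 8351 genes were FOXO3 for CHRM3 (Pearson's r = 0.929), HGS for SCTR (r = 0.944) and RANBP3 for GLP1R (r = 0.904). Over the 18 islet libraries the nearest of 10549 genes were FLCN for GCGR (r = 0.972), ANKS3 for GIPR (r = 0.913), HNRNPUL1 for ADRA2A (r = 0.841) and STOML1 for SSTR2 (r = 0.830). Without the islets of 12AS51 these were 0.931, 0.837, 0.830 and 0.738. All libraries of a tissue share their scaling, and few libraries against that many genes yield high values of r readily.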

How the data were processed

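The authors deposited read counts per Ensembl pig gene, 1 table a tissue. The submitters' processing notes list FastQC, HISAT2 (2.0.2), Subread, edgeR and, as build, susScr3. The annotation behind the gene IDs was not checked against that build. Strand and counting settings are not given in these sources, so reads of overlapping or antisense genes were not separable. No coordinates or gene lengths were used, and levels are compared within a gene.

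Animal code and tissue matched a column to 35 of 37 samples, and 1 column that matched no sample was left out. Symbols covered 14857 of 25880 rows. Islets of 11KS28 and 12AS51 have a source name reading Pancreas, and the title was followed. The labels pair tissues by animal. Deviations of the same animal's tissues correlated at a median of −0.023 over 16 animals, against 0.027 between animals. The 128 pairs of libraries within groups differed beyond sampling noise (lowest chi-square per degree of freedom 3.18).

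CPM used column totals. Tests were edgeR 4.0.16 in R 4.3.3 (filterByExpr, TMM, robust quasi-likelihood, two-sided), checked on simulated data. Alternatives used limma 3.58.1, DESeq2 1.42.0, other scalings and filters, and fewer libraries. Marker sums used exact permutation tests (scipy 1.17.1). Receptors and lists were chosen with earlier results of these data known. Named genes were all receptors and tested relatives, the 3 largest changes of each other list between tissues, the 2 largest between density groups, and the nearest in pattern. The relation to endocrine markers, the omission of 12AS51 from the patterns, and the fit without both shallow libraries and islets of source name Pancreas were chosen after seeing the data.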

Additional observations from a re-analysis of the deposited data

Results flagged for a closer look

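Single libraries lay apart from their group, by Dixon's ratio of gap to range, in 4 of 28 combinations of receptor and group. How often chance gives this for CPM values read from few counts was not tested. CHRM3 reached 6.11 CPM, from 25 counts, in islets Low replicate 8 (15LS26), against 0.209 to 2.30 CPM in the other Low islets. GIPR reached 13.5 CPM in pancreas Low replicate 1 (12FS135), a shallow library with 4 counts of the gene, against at most 5.84 CPM in the others. Pancreas High replicate 7 (16CS60) stood apart for GCGR, with 3.234 CPM from 6 counts against at most 0.641 CPM, and for SSTR2, with 6.469 CPM from 12 counts against at most 3.17 CPM.

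The density difference in islets minus that in pancreas passed the test for GCGR (2.47, adjusted p = 0.0411) and SSTR2 (1.90, adjusted p = 0.00306), and for neither without the shallow pancreas libraries.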

How the results depend on the processing

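Between tissues, 6 receptors were called, and 5 to 7 over 12 alternatives; leaving out single libraries gave 6 to 7. With the animal as a replicate block 6 were called, 3 in each direction. CHRM3, SCTR, GIPR, GCGR and SSTR2 kept their call in all 12 alternatives. In High against Low pancreas, 2 were called. The count was 1 with upper-quartile scaling and 0 without libraries under 1000000 counts, without pigs of code 14, with the label of the same animal's islets and with the acinar covariate. It was 3 with no filter or with at least 1 CPM. Leaving out single libraries gave 0 to 3: 0 without Low replicate 1 or 5, 1 without Low replicate 3, 4, 6 or 8, and 3 without Low replicate 2. In islets no alternative and no library left out (0 to 0) gave a call. For the difference between the tissues the count was 2, and 4 with RLE scaling, 4 with upper-quartile scaling, 4 with DESeq2, 1 with no filter, 1 without genes above 5% of a library, 0 without shallow libraries and 0 without code 14. With limma-voom it was 3, and 3 again with the animal added as a replicate block. Genes called over the genome fell from 4283 to 0 (pancreas density) and from 5718 to 61 (difference) without shallow libraries.

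Signs that turned were these, on the log2 scale, and the cause was not tested. Between tissues, FFAR2 was −0.21 with upper-quartile scaling, −0.43 with DESeq2 and −0.036 without islets of source name Pancreas, and −0.11 to 0.32 with single libraries left out. In pancreas, GLP1R was 0.84 without shallow libraries, 0.68 without code 14 and 1.37 with the acinar covariate. SCTR was 0.24 with no filter, 0.10 with 1 CPM, 0.027 without code 14 and 0.23 with the covariate. With the covariate ADRA1A was 0.13, PLCB2 0.29, PRKCB 0.49, ADCY3 0.25, GNAI3 −0.20 and ARRB2 0.10. SST was 0.24 with the islets' label. ADRA2C was 0.026 (RLE), 0.46 (no filter), 0.33 (1 CPM), 0.015 (DESeq2), 0.28 (limma-voom), 0.0295 (without genes above 5%), 0.44 (without shallow), 0.0034 (without code 14), 0.36 (islets' label) and 0.55 (covariate), and −0.28 to 0.25 with single libraries left out. In islets, the label of the same animal's pancreas gave GLP1R 0.29, GIPR 0.15, ADCYAP1R1 −0.27 and FFAR2 0.095. Without code 14, GIPR was 0.11, SSTR2 0.045, CHRM4 0.49, SSTR1 −0.023 and SSTR3 −0.045. Without the islets of source name Pancreas, SSTR2 was 0.002, CHRM4 0.086 and SSTR1 −0.015. SSTR3 was −0.025 with limma-voom. With single islet libraries left out, GIPR ranged from −0.21 to 0.041, GCGR from −0.20 to 0.34, SSTR2 from −0.13 to 0.039, ADCYAP1R1 from −0.13 to 0.49, CHRM4 from −0.20 to 0.086, SSTR1 from −0.041 to 0.21 and SSTR3 from −0.044 to 0.19. For the difference between tissues, GLP1R was −0.17 with no filter, −1.01 without shallow libraries and −1.04 without code 14, SCTR was 0.065 with upper-quartile scaling and GCGR −0.12 without shallow libraries.

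Upper-quartile scaling moved the median of all genes from −0.014 to −0.14 between tissues, from 0.065 to −0.11 in pancreas and from 0.0025 to 0.26 in the difference. Depth limits the pancreas: in the 7 shallow libraries each receptor rests on at most 12 counts.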
